A study of Mus musculus with 2 samples.

Results

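Antisense genes, whose RNA is read from the DNA strand opposite to another gene, were described in the nucleoplasm of mouse macrophages. A gene was included when at least 1 of its annotated transcripts was of the antisense type, none was protein-coding, and RSEM, a program that estimates read counts per gene, gave it at least 50 expected counts in both libraries. This left 202 genes of 3088 antisense genes and of 55536 annotated genes in all. The members were chosen by their RSEM counts, which also set their levels, so the levels are a description and carry no test. The other 2886 antisense genes were below the minimum, and 1531 of the 3088 had 0 counts in both libraries.

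Antisense RNA genes sit inside, across or beside protein-coding genes on the other strand, which are called partners here. Some of them act on the partner in place, by silencing it, by changing its splicing or by transcription through it, some act elsewhere in the cell, and for most no function is known. Because such RNAs are often kept in the nucleus, a nuclear RNA fraction is a natural place to look for them. When the exons of both genes overlap, a read from that stretch can be given to the right gene only if the sequencing library and the counting keep the strand. The same holds for reads of unspliced partner RNA where the exons of the antisense gene face partner introns.

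Ribosome-depleted total RNA was sequenced from the nuclear fraction, labelled nucleoplasmic, of C57BL/6J bone-marrow-derived macrophages. Both libraries are of 1 group: cells treated with 100 ng/ml Lipid A (the lipid anchor of lipopolysaccharide and the ligand of Toll-like receptor 4) for 12 h, kept without it for 12 h, and treated again at 100 ng/ml for 40 min. There is no untreated group, the labels give both libraries the same donor entry, and age and sex were not collected. The RNA input was 1 µg for library 1 but 500 ng for library 2, so input and replicate number cannot be told apart. The libraries held 19797829 and 17213606 expected counts on annotated genes. The 8 macrophage markers lay between 47.3 and 1421 TPM (a transcript level scaled for length and for the library's total) in library 1 and between 32.2 and 1201 TPM in library 2. Of the markers of T cells, B cells, neutrophils, erythroid cells and fibroblasts, Cd4 reached 19.8 and 23.0 TPM while Cd3e and Cd3g were at 0, and the other 12 were below 1 TPM. In bulk RNA, fewer cells making a transcript and less transcript per cell cannot be told apart.

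The 202 genes were spread over 20 chromosomes. A protein-coding partner on the other strand, overlapping or within 2 kb, was annotated for 197 of them, and these had 187 distinct partners. For 50 members more than 1 protein-coding gene qualified, and only the 1 with the most shared exon bases, then the largest overlap, was used. Exon bases of the member lay opposite exon bases of the partner in 135 members, the gene bodies overlapped without a shared exon base in 60, and 2 lay beside the partner without overlap. By arrangement, 99 members lay wholly inside the partner, 51 overlapped it tail to tail, 39 overlapped it head to head, and 6 spanned it. Most of the exon sequence faced introns: the median member had 71.7% of its exon bases opposite introns and 8.40% opposite exons of genes on the other strand. Of the 202, 172 carry only a serial Gm or Rik name, so for most of them the partner is the main thing known about the locus.

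The transcripts of 4 members are shown because they differ in how they face a partner of the innate immune response. They were picked after their values were seen. Gm28913 (chromosome 1, 131263330 to 131266749, plus strand, mm10) and Gm28914 (chromosome 1, 131259507 to 131260553, plus strand) lie inside Ikbke, which encodes the inducible kinase IKK epsilon of interferon induction. Gm16094 (chromosome 1, 85599286 to 85599839, plus strand) lies within 2 kb of Sp110, an interferon-inducible nuclear body gene, without overlap. Gm20234 (chromosome 11, 83065752 to 83071246, minus strand) overlaps Slfn2, a Schlafen family gene, without sharing an exon base. The sequences are GENCODE M21 transcripts, written 5′ to 3′ from base 1 to base 300, with the bases that lie opposite an exon of the partner in capitals.
Gm28913: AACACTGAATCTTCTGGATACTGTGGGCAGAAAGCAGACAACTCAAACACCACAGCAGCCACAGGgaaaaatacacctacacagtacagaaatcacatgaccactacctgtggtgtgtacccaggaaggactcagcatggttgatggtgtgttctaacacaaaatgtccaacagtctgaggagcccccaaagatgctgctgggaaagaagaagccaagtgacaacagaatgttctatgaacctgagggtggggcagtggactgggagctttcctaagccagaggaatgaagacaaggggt
Gm28914: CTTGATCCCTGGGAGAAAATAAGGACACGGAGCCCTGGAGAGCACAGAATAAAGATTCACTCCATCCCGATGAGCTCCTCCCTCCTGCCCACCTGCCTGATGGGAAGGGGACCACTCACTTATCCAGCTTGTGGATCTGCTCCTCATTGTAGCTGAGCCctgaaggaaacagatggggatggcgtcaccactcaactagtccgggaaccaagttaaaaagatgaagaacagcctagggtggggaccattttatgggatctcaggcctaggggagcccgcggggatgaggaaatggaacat
Gm16094: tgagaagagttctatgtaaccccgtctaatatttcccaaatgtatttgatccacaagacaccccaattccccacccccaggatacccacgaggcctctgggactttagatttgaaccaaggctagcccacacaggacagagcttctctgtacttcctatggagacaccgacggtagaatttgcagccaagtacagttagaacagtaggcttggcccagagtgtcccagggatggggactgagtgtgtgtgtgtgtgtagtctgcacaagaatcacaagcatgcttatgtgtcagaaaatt
Gm20234: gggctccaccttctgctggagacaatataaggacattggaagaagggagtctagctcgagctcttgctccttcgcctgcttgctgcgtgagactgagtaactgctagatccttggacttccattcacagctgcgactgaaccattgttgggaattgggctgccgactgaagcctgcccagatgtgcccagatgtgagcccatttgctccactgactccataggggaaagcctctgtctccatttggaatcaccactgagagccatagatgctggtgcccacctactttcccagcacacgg
In Gm28913, 65 of 364 bases lay opposite Ikbke exons, of which 20 were coding. In Gm28914, 159 of 667 bases did, of which 40 were coding. Untranslated mRNA sequence made up 0 of these bases in either, so the rest face exons only of Ikbke transcripts annotated without a coding sequence. In both, the capitals form a single run at the 5′ end, and in the other 2 transcripts there are none.

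Antisense genes at the minimum were low next to protein-coding genes and near the level of long intergenic noncoding RNA (lincRNA) genes. The median member had a TPM of 5.585 in library 1, 3.77 in library 2 and 4.64 over both. The 8928 protein-coding genes at the same minimum had a median of 9.155 TPM over both libraries and the 166 lincRNA genes had 4.90 TPM. The median member ranked at percentile 28.8 of the protein-coding genes and at percentile 47.6 of the lincRNA genes. In both libraries, 39 members exceeded 10 TPM and 5 were under 1 TPM. All 202 together took 0.457% and 0.413% of the expected counts. The 10 highest members held 34.5% and 37.6% of the members' TPM, so the group's sum rests largely on a few genes.

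**Figure D1:**
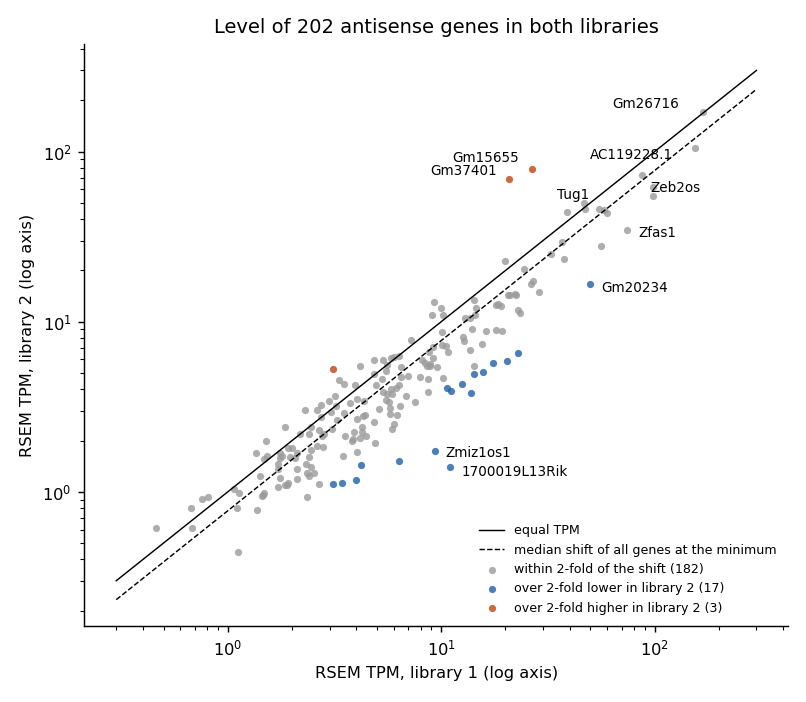
RSEM TPM of each of the 202 antisense genes in library 1 (x, log axis) and library 2 (y, log axis), 1 point a gene, with the line of equal TPM and the dashed line of the median shift of all 10150 genes at the minimum. Most points follow the dashed line, 17 lie over 2-fold below it and 3 over 2-fold above it.

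Gm26716 had the highest TPM, 167.96 in library 1 and 171.97 in library 2, a mean of 170 ± 2.84 (SD, n = 2). It lies inside Sdc3 (chromosome 4, 130824394 to 130826313, minus strand), which encodes the heparan sulfate proteoglycan syndecan-3, and all of its 415 exon bases lie opposite Sdc3 exons. Sdc3 stood at 183.54 and 151.3 TPM, so member and partner did not keep 1 order in both libraries. By mean count Gm26716 ranked 19 among members, and its rank by TPM rests in part on its short length. Its RSEM counts were not whole, and its level was much lower with kallisto, as given below.

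The second highest, AC119228.1, had the most counts of all members, 12354.8 in library 1 and 9508.89 in library 2. Its TPM was 154.75 and 104.63. It lies inside Cd274 on chromosome 19, the gene for the checkpoint ligand PD-L1, which stood at 407.08 and 421.13 TPM. Gm37787, inside Slamf7, a receptor of the signaling lymphocytic activation family, had 98.01 and 61.51 TPM beside 402.14 and 370.61 for Slamf7. Gm28913 had 98.56 and 54.68 TPM on only 342 and 180 counts, which the 364 bases of its transcript turn into rank 5 by TPM and rank 65 by count. Ikbke itself stood at 546.5 and 274.61 TPM.

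Gm40578, tail to tail with the TNF-induced gene Tnfaip2, had 59.96 and 43.78 TPM, against 534.84 and 355.23 for Tnfaip2. BE692007, tail to tail with the membrane protein gene Ms4a6c, had 54.66 and 45.79 TPM, against 163.18 and 134.97 for Ms4a6c. Both were below the partner in both libraries, as were 7 of the 10 highest members. The exceptions were Gm26716, Gm15655 opposite Maf, and Tug1. Tug1, a long noncoding RNA whose start lies head to head with that of the chromatin gene Morc2a, had 58.05 and 45.27 TPM, against 14.67 and 11.52 for Morc2a.

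Of the list of well-studied antisense RNAs, 4 of 26 were members, 12 were antisense genes below the minimum, and 10 were not antisense genes under this rule. Zeb2os, inside the gene for the transcription factor Zeb2, had 87.02 and 72.48 TPM. Zfas1, a host gene of small nucleolar RNAs that overlaps the start of Znfx1 head to head, had 74.47 and 34.74 TPM on 1201 and 720 counts. These are the highest levels among the 4. The imprinted RNAs were lower per length. Airn, which is transcribed across the start of Igf2r and silences it on the paternal chromosome, had 5.82 and 6.11 TPM, and Igf2r had 20.66 and 20.85. Kcnq1ot1, the imprinted silencer of the Kcnq1 domain, had 6027.81 and 6160.96 counts, which placed it at rank 2 of the members by count. Spread over 93092 exon bases these gave 3.03 and 2.93 TPM, rank 135 by TPM, while Kcnq1 was listed at 0.03 and 0 TPM.

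The genes nearest to the minimum show how thin the edge is. Just inside were Igf1os with 121 and 50 counts, 2810402E24Rik with 83 and 50, and 4930599N23Rik with 62.82 and 51. Just outside were Gm16982 with 77.41 and 49.12, Gm46218 with 59 and 49.04, and Plxna4os1 with 64 and 49. Library 2 decided all 6.

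Partners stood well above their antisense genes. The median of the 187 partners was 22.97 TPM over both libraries, and 164 of them (87.7%) reached 50 counts in both libraries. Of the 2398 partners that had only antisense genes below the minimum, 44.5% did. The member was below its partner in both libraries in 160 of 197 cases, by over 4-fold in 100 of them, and above it in both in 30. In 22 of those 30 the partner was itself below the minimum. Across the 197 pairs, the mean TPM of member and partner had a Spearman correlation of 0.499. This describes genes of the same 2 libraries, and pairs that share exon bases can share reads. If the strand was not kept, members whose exons face partner introns could also hold reads of unspliced partner RNA.

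The 8 pairs in which the member was higher although the partner reached the minimum include Tug1 and Morc2a, named above. Gm17435, tail to tail with the Mediator subunit gene Med26, had 26.38 and 16.75 TPM, against 10.06 and 4.45. E130307A14Rik, tail to tail with Traf3ip2, an adaptor of interleukin-17 signalling, had 10.76 and 6.63 TPM, against 3.81 and 1.41. These examples were picked after their values were seen. Among members with a nearly silent partner, Gm17056 had 14.26 and 13.47 TPM beside Lsmem1 at 0.19 and 0 TPM, and Gm26740 had 20.98 and 14.29 TPM inside Raet1e at 0.09 and 0.76 TPM. Gm17435, E130307A14Rik, Gm17056 and Gm26740 each had 2 protein-coding genes on the other strand, overlapping or within 2 kb. Only the 1 used as partner was compared, so the other gene need not be low.

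Genes on opposite strands whose starts lie close together can share a promoter region. Members that do not overlap the partner, such as Gm16094 near Sp110, were not counted here. There were 22 members that overlapped the partner head to head with a start within 1 kb of the partner's start, and 3 of them exceeded the partner in both libraries. Their median level was 4.51 TPM, close to that of all members. Zfas1 lay below Znfx1, an interferon-inducible RNA helicase, at 182.94 and 135.63 TPM. Gm37305, overlapping the start of the cyclin L1 gene Ccnl1, had 7.53 and 3.39 TPM against 416.62 and 235.27, the widest gap named in this group.

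More than 1 member was found at 8 partners, which accounts for 18 members. Arhgap10 and Lrmda, a gene for a leucine-rich melanocyte differentiation-associated protein, had 3 each. Inside or across Lrmda, at 54.99 and 31.02 TPM, Gm7480 had 36.88 and 29.27 TPM, 4930405A10Rik had 28.87 and 14.86, and Gm10248 had 2.31 and 3.01. The level thus differed by over 4-fold among members of the same partner. Around Ikbke, Gm28914 had 22.08 and 14.62 TPM, below Gm28913 in both libraries. At Sp140, a nuclear body gene related to Sp110, Gm10552 had 10.07 and 7.27 TPM and Gm17017 had 8.43 and 5.72.

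Symbols ending in os or as, with or without a number, name the gene they oppose. Among all antisense genes, 266 carried such a symbol with a partner of that name in the tables. Of these, 15 were members and 251 were below the minimum, 150 of them at 0 in both libraries. The symbol of a further member, Zfas1, fits the ending, but what precedes it is not a gene symbol in the tables, and its partner by position is Znfx1. In 14 of the 15 pairs the gene bodies overlapped, and the exception was Brip1os, whose exons shared bases with those of Med13 instead. Brip1os starts at base 86201370 of chromosome 11 on the plus strand. Brip1 starts within 1 kb of it, at base 86201193 on the minus strand, and runs the other way. Phtf1os overlapped Phtf1 but shared most exon bases with Rsbn1.

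In 13 of the 15 pairs the gene named was higher than its antisense gene in both libraries, and it was lower in both in the other 2. The median log2 ratio of antisense over named gene, on the log2(TPM + 0.1) scale, was -2.70 in library 1 and -2.77 in library 2. Zeb2, at 778.91 and 493.28 TPM, exceeded Zeb2os with log2 ratios of -3.16 and -2.77 by RSEM. This gap was much smaller with kallisto, as given below. Igf1, the growth factor gene, stood at 34.55 and 33.53 TPM and Igf1os at 2.36 and 0.93, with log2 ratios of -3.82 and -5.03. That is the lowest ratio of library 2, and Atxn7l1os2 at 2.62 and 1.85 TPM under Atxn7l1 at 51.94 and 43.89 was the lowest of library 1.

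The pairs with the smaller gaps were those of Peak1os, Rab10os and Phtf1os. Peak1os had 10 and 12.04 TPM beside the pseudokinase gene Peak1 at 24.54 and 18.98. Rab10os had 18.42 and 12.77 TPM beside Rab10, a small GTPase gene of vesicle transport, at 50.95 and 42.63. Phtf1os had 1.42 and 1.24 TPM beside Phtf1 at 4.26 and 2.58. In none of these 3 did antisense and named gene change order between libraries.

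The reverse order was seen at 2 loci. Brip1os had 9.02 and 10.97 TPM, while Brip1, a DNA helicase of homologous recombination and crosslink repair, had 0.69 and 0.44. Mypopos had 5.5 and 5.15 TPM, while the transcriptional repressor gene Mypop had 2.58 and 2.14. Brip1 ranked at percentile 0.32 of the protein-coding genes at the minimum and Mypop at 11.8, so both named genes were low. Both antisense genes were above the members' median of 4.64 TPM.

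The remaining named pairs lay in between. Aknaos had 13.69 and 6.86 TPM under Akna at 89.26 and 47.82, and Tmcc3os had 8.64 and 3.85 under Tmcc3 at 73.99 and 48.61. Adap2os had 10.6 and 4.07 TPM under Adap2, an Arf GTPase-activating protein gene, at 110.53 and 51.44. Atxn7l1os1 had 4.89 and 1.94 TPM and shares its named gene with Atxn7l1os2. In all 4 of these members the centred log2 difference, library 2 over library 1, was lower than that of the named gene. The 15 pairs had no single direction: in Brip1os, Mypopos, Peak1os, Phtf1os, Anxa11os and Zeb2os the difference was higher than that of the named gene. Bcas3os1, Anxa11os and Zmiz1os1 had log2 ratios between -2.07 and -4.98. Over the 15 pairs the Spearman correlation of mean TPM was 0.445, with Atxn7l1 counted in 2 pairs.

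**Figure D2:**
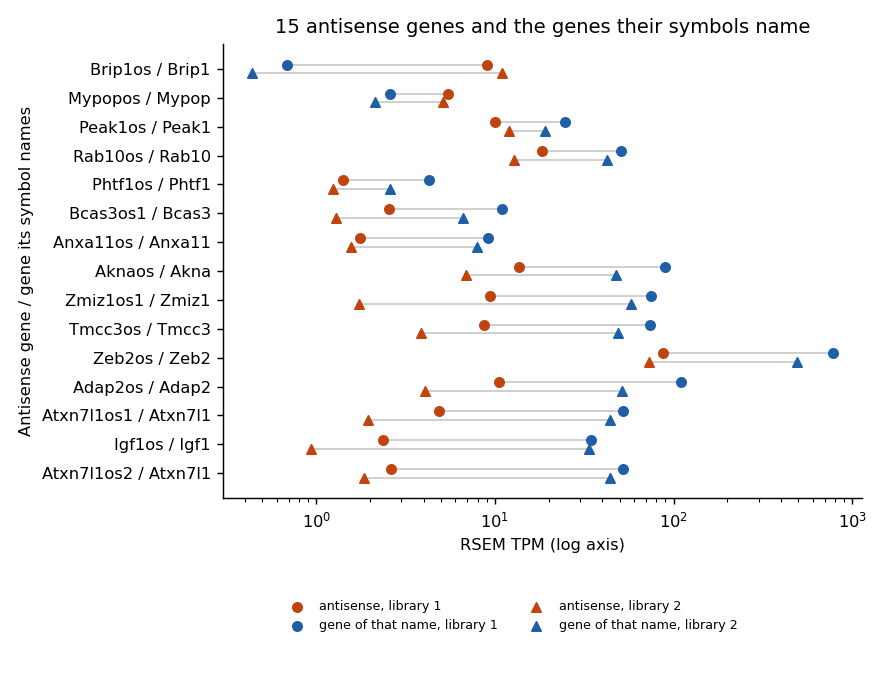
RSEM TPM (x, log axis) of the 15 antisense genes named after another gene (red) and of that gene (blue), circles for library 1 and triangles for library 2, joined by a line within each library. Blue lies to the right of red in 13 pairs, and Brip1os and Mypopos are the exceptions.

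Genes of the Lipid A response and of macrophage identity were looked up among the partners. As background, 164 partners reached the minimum, which is 1.84% of the 8928 protein-coding genes that did. Of 52 cytokine, chemokine, NF-kB and interferon response genes, 0 had an antisense member. Only 5 had an antisense gene annotated in this sense, and all 5 were below the minimum: those at Il1b, Ptgs2, Zfp36, Jun and Oasl1. RNA of these genes was measured, Il1b at 256.54 and 217.96 TPM and Ptgs2 at 36.59 and 32.52, while Ptgs2os had 20 and 22 counts. For the other 47 no such antisense gene was annotated, so the list says little about them, and a count of 0 among 52 is near the background. Of 30 macrophage identity genes, Zeb2 and Maf had a member, 3 (Mertk, Cebpa and Runx1) had an antisense gene below the minimum, and 25 had none annotated. Immune partners outside these lists, such as Ikbke, Cd274, Slamf7 and Tnfaip2, came to attention through the members' levels and were not counted.

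RSEM divides a read that matches several transcripts, and a gene whose count is whole (within 0.005) in both libraries had no divided read that left a fraction. Counts were whole in 25 of 138 members that had an exon base opposite any exon on the other strand. They were whole in 56 of 58 members with exons opposite introns only and in 5 of 6 with no opposite gene at their exons. Over all 10150 genes at the minimum, 71.7% had whole counts. Whether the counting used the strand is not given in the sources used here, and what divided the reads was not tested. A whole count therefore does not show that a member facing introns is free of reads from unspliced partner RNA. The deposited posterior SD of the count exceeded 5% of the count in at least 1 library in 18 members, and all 18 had an exon opposite an exon. The highest was 16.3%, for Gm37401 in library 1.

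**Figure D3:**
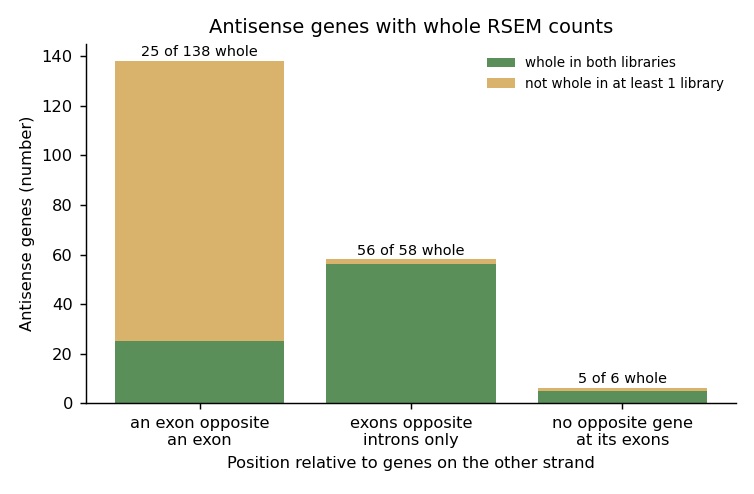
Number of antisense genes (y) by the position of their exons relative to genes on the other strand, with the genes whose RSEM counts were whole in both libraries in green and the others in yellow. Whole counts were found in 25 of 138, 56 of 58 and 5 of 6 genes.

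Kallisto, which matches reads to transcripts by short words without a full alignment, was the source of the other deposited tables of the same libraries. Its order of members was similar, with exceptions among the highest members given below. The Spearman correlation of RSEM and kallisto TPM over the 202 members was 0.866 in library 1 and 0.839 in library 2. Kallisto gave more counts than RSEM in both libraries for 198 of 202 members, and for 99.2% of all 10144 genes with both values, so the members do not stand apart in this. The TPM scales of the programs differ, so log2 ratios were centred on the median of all genes at the minimum. On that scale the median member was 0.085 in library 1 and 0.15 in library 2. By centred counts it was 0.26 and 0.29, and the lincRNA genes stood at 0.27 and 0.30, so the offset was as large in lincRNA genes.

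Over 2-fold higher kallisto values in both libraries were found for 29 members, 14.4%, against 4.5% of all 10144 genes with both values. Among lincRNA genes the share was 13.3%, which is close to that of the members. Over 2-fold lower values in both libraries were found for 3 members, 1.49%, against 0.513% of all genes. By centred counts, 28 members were higher and 3 lower, but the share of all genes was not computed on that scale. Of the 29, 22 also passed by counts, and all 7 that did not had more than 1 annotated transcript, as did 91 of all 202 members.

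Gm48754, inside the small GTPase gene Rala, had the largest excess among members with a mean of 100 counts. RSEM gave it 132.86 and 126.84 counts and kallisto 2029.52 and 3162.78. Of its 31-base words, 94.6% also occur in the same orientation in transcripts of other genes, and 76.6% in the opposite orientation. Words repeated in the same orientation were over 20% in 10 members, 4 of which are among the 29. Only annotated transcripts were searched.

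Gm20234 at Slfn2 had 549 and 185.96 RSEM counts and 4315.63 and 3756.42 kallisto counts. Gm28913 at Ikbke had 342 and 180 against 1684 and 1935, and Gm16094 near Sp110 had 227 and 214 against 851 and 1422. In Gm28913 and Gm16094 none of the 31-base words occurs in the same orientation in transcripts of other genes. In the opposite orientation the shares were 10.8% for Gm28913 and 0% for Gm16094. Airn had 93 and 118 RSEM counts and 637.16 and 667.39 kallisto counts, with 0.387% of its words found elsewhere. In Gm20234 that share was 20.2%.

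Zeb2os and 2900089D17Rik differed by TPM more than by count. Zeb2os had centred log2 TPM ratios of 2.87 and 2.62 and centred log2 count ratios of 0.63 and 0.56. In 2900089D17Rik, head to head with Bri3, the TPM ratios were 2.71 and 2.00 and the count ratios 0.67 and 0.44. In these genes the programs therefore disagree on the level per length more than on the number of reads.

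The 3 members with lower kallisto values were Gm26716, Gm44709 and Gm17139, all inside a partner. Gm26716, the highest member by RSEM, had 762.25 and 759.29 RSEM counts and 162.01 and 399.1 kallisto counts. Its kallisto TPM was 7.48 and 31.3, with centred log2 ratios to RSEM TPM of -2.77 and -1.99. Gm44709, inside the elongation factor gene Supt5, had 94.52 and 64.21 against 28.71 and 5.49. Gm17139, inside the ubiquitin ligase gene Arel1, had 142.04 and 70.81 against 56.14 and 0, and the floor of 3 counts was used for the 0. All 3 have over 90% of their exon bases opposite exons of the other strand, as only 5 of the 202 members do. The other 2 of those 5, Gm15655 and Gm37401, had mean centred log2 ratios of -0.49 and -0.79. The next lowest members, Gm15512 at -0.74 and Phtf1os at -0.50, have 63.3% and 63.0% of their exon bases opposite exons.

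**Figure D4:**
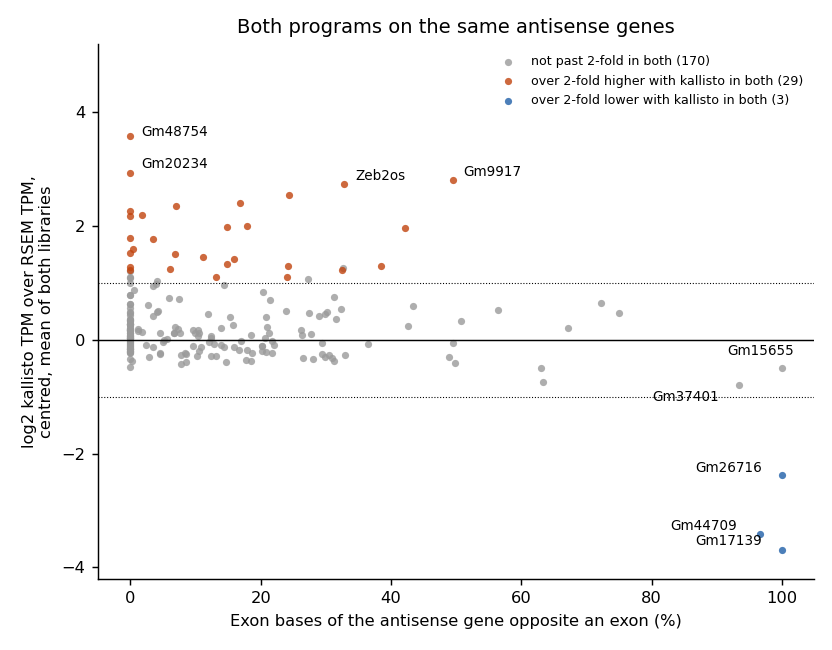
Centred log2 ratio of kallisto over RSEM TPM (y, mean of both libraries) against the share of the antisense gene's exon bases opposite an exon (x, %), 1 point a gene, with dotted lines at 2-fold. The 29 genes higher with kallisto (red) lie at shares up to 49.5%, and the 3 lower genes (blue) lie above 90%.

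In the named pairs, the antisense gene's share of the reads of the pair was higher with kallisto than with RSEM in both libraries for 10 of 15. These shares are of counts and are not scaled by length. Zeb2os took 2.92% and 3.15% of its pair's counts with RSEM and 4.80% and 4.90% with kallisto. Adap2os took 4.74% and 3.75% with RSEM and 11.5% and 15.6% with kallisto. Brip1os went the other way, from 91.2% and 93.5% with RSEM to 78.8% and 80.8% with kallisto. The named gene was higher in TPM with kallisto too in 13 of 15 pairs in each library, but the size of the gap depended on the program. For Zeb2os over Zeb2 the log2 TPM ratios were -0.36 and -0.30 with kallisto, against -3.16 and -2.77 with RSEM. For Tmcc3os over Tmcc3 the gap was wider with kallisto, at -4.62 and -4.69 against -3.08 and -3.62.

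Levels of the members in both libraries were similar in rank, with a Spearman correlation of 0.911 over 202 genes. The libraries are 1 on each side, so no test was possible, and differences are counts past a fold. TPM was centred for this, since the median log2 difference, library 2 over library 1, of all genes at the minimum was -0.37. On the centred scale the median member stood at -0.19, lincRNA genes at -0.08 and protein-coding genes at 0.01. The mitochondrial share of all counts was 2.63% in library 1 but 6.60% in library 2. The part of this share in the members' difference was not tested.

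Over 2-fold lower in library 2 were 17 members, 8.42%, against 1.85% of all 10150 genes at the minimum. Over 2-fold higher were 3 members, 1.49%, against 1.91% of all genes. Among lincRNA genes 5.42% were lower and 2.41% higher. Without centring, 39 members were lower and 2 higher. With kallisto TPM, centred, 12 were lower and 4 higher, and 8 of the 17 and 2 of the 3 also passed there. The share of all genes was not computed for these 2 settings. Without centring the median of all genes was itself at -0.37, so those counts do not set the members apart.

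1700019L13Rik overlaps the start of the transcription factor gene Csrnp1 and also lies opposite Cx3cr1, which was not compared. It had 342 counts and 11.03 TPM in library 1 and 51 counts and 1.39 TPM in library 2. Its centred log2 difference, the lowest of all members, was -2.62, and that of Csrnp1 was -0.33. Zmiz1os1 had 9.35 and 1.73 TPM, a difference of -2.06, while the transcriptional coregulator gene Zmiz1 differed by -0.01. Gm26885, head to head with the kinase gene Pim1, had 6.31 and 1.51 TPM, a difference of -1.69, but -0.27 by kallisto. Gm45472, head to head with the phospholipid enzyme gene Lpcat2, had 13.86 and 3.8 TPM, and Gm26674, head to head with Sash1, had 22.96 and 6.54. All 5 of these members overlap their partner head to head. Over all members, 7 of 39 head-to-head members were past 2-fold lower, 8 of 99 inside a partner and 2 of 51 tail to tail.

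The 3 members higher in library 2 include 2 of the 5 with over 90% of their exon bases opposite exons. Gm15655 had 26.53 and 79.13 TPM, a centred log2 difference of 1.95, and Maf, the macrophage transcription factor gene whose exon it faces, had 73.94 and 72.03 TPM, a difference of 0.33. Gm37401, tail to tail with the small GTPase gene Rhoa and also facing Gpx1, had 20.86 and 69.03 TPM, a difference of 2.10, beside 0.40 for Rhoa. Their counts carry a posterior SD of 13.4% and 16.3% of the count in library 1 and of 4.35% and 5.06% in library 2. Among members with a mean of 100 counts the next highest were Gm20658 inside Vipr2, Gm26782 at Tep1 and Gm9968 inside Zbtb20, at 0.83, 0.78 and 0.77, within 2-fold. The third member past 2-fold was 4930539J05Rik at Ube2d3, with 54.34 and 118.29 counts.

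Library differences of members were set beside those of their partners. Over the 174 members whose partner also reached the minimum, the centred log2 differences had a Spearman correlation of 0.330 and a Pearson correlation of 0.314, and 111 had the same sign. By arrangement the Spearman correlation was 0.444 for 92 members inside the partner, 0.334 for 33 head to head and 0.308 for 44 tail to tail. It was 0.368 for 119 pairs that share exon bases and 0.240 for 53 that overlap without a shared exon base. The points share the 2 libraries and some partners, so these are descriptions. Of the 16 members over 2-fold lower whose partner reached the minimum, 15 had a partner below 0 on the centred scale, as did 106 of all 174. A partner over 2-fold lower was found for 0 of the 16 and for 3 of the 174. Among the 15 named pairs, 7 had the same direction in both genes.

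**Figure D5:**
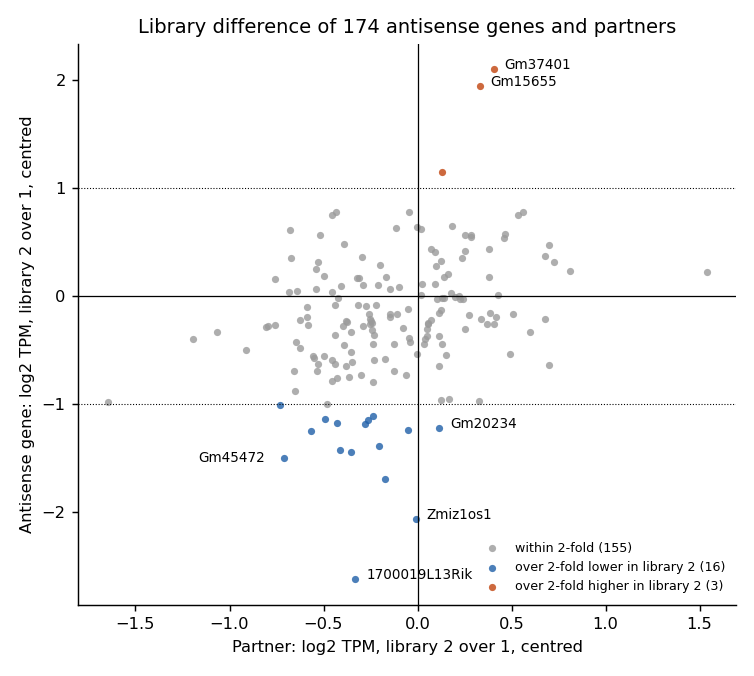
Centred log2 TPM difference between libraries (library 2 over library 1) of the 174 antisense genes (y) and of their partners (x), 1 point a pair, with dotted lines at 2-fold for the antisense gene. The 16 blue points lie over 2-fold lower, with partners between -0.73 and 0.11, and Gm15655 and Gm37401 stand apart at the top.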

How the data were processed

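Total RNA-seq libraries of 1 group (2 libraries) were analysed. The expected counts of RSEM and the estimated counts of kallisto were used as the authors deposited them, per the file headers. TPM is the authors' deposited length-scaled value. The posterior SD of the count, a score of precision, was deposited by the authors in the RSEM gene tables. Per the submitters' notes beside the files the assembly is mm10 and the annotation GENCODE M21, and for program versions and strand use the sources used here give no statement.

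Kallisto transcript values were summed by gene. Ratios of antisense over named gene were taken on log2(TPM + 0.1). Ratios between programs or libraries are log2 ratios of TPM or counts with no pseudocount, centred on the median of the 10150 genes with 50 or more expected counts in both libraries. Kallisto counts below 3, including 0, were set to a floor of 3 counts in such ratios, and RSEM values were left as they were. Geometry, exon overlap and 31-base words came from the M21 annotation and transcripts. The partner is the protein-coding gene on the other strand within 2 kb with the most shared exon bases, then the largest overlap. Spearman and Pearson correlations are across genes, which are not independent replicates, with no p.

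The members and gene lists were chosen with earlier results of these data known. Named genes were all members named os or as, the 10 highest by TPM, the 5 most extreme each way between programs and between libraries at a mean of 100 counts, the listed genes, and the 3 nearest on each side of the minimum. Others are said to be picked after their values were seen, or illustrate a count beside them. Code was tested on simulated data. Python 3.11.15, pandas 2.3.3, numpy 2.4.6, scipy 1.17.1 and matplotlib 3.10.9 were used.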

Additional observations from a re-analysis of the deposited data

How the results depend on the processing

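The number of members was 202, and 374 at a minimum of 20 counts, 121 at 100, and 694 by kallisto counts. Their median TPM was 4.64, between 3.77 and 5.585 in single libraries, 2.56 at 20 counts, 7.26 at 100, 2.76 by kallisto, and 14.7 when TPM was rescaled over genes of 200 bases or more outside the mitochondrial genome. The median log2 ratio of antisense over named gene was -2.74, between -2.77 and -2.70 in single libraries, -1.80 by kallisto, -2.63 with a pseudocount of 1, and -3.40 by counts. The median log2 ratio of kallisto over RSEM was 0.13, between 0.085 and 0.15 in single libraries, 0.28 by counts, and -0.96 without centring. Members over 2-fold apart between programs numbered 32, between 39 and 40 in single libraries, and 17 of the 121 at 100 counts. Between libraries they numbered 20, 41 without centring, and 10 at 100 counts. Shares of all genes past the fold were computed only for the main setting. An alternative added after seeing the data kept only the 64 members with no exon base opposite an exon. The kallisto over RSEM median was 0.19. Of the 64, 8 were apart between programs and 5 between libraries, against 32 and 20 of all 202. All 3 members lower with kallisto and all 3 higher in library 2 had an exon opposite an exon. The cause of these shifts was not tested. The median library difference of -0.19 moved by less than 0.1 in each of the 4 alternatives run for it. No paired analysis was possible because there is 1 group.

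With 2 libraries of 1 donor entry, no untreated group and no strand statement, the levels describe these libraries. Counts of most members with an exon opposite an exon were not whole, and counting error is not covered by the spread of 2 libraries.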
